A study of Mus musculus with 2 samples.

Results

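The 9 genes described here belong to the liver X receptor (LXR) pathway of cholesterol release: the receptor genes Nr1h3, Nr1h2 and Rxra, the cholesterol exporter genes Abca1 and Abcg1, the apolipoprotein gene Apoe, and Mylip, Lpcat3 and Soat1. They were chosen by name, with earlier results of these data known, and found by matching Ensembl identifiers to gene symbols; all 9 were present among 52550 identifiers, and all 9 were among the 11673 genes measured at a mean of at least 1 TMM-scaled count per 1000000 (CPM). TMM is a scaling that sets the bulk of genes to be equal between libraries. RNA came from RAW264.7, a mouse macrophage line transformed by Abelson leukaemia virus. The cells received no treatment and were grown in 2D culture (1 library, 14371084 counts) or in 3D culture (1 library, 16652503 counts). The labels give neither the number of cultures behind each library nor how the 3D culture was made. With 1 library per culture method the differences lack a replicate check and carry no p-value. The exact 95% intervals printed after ratios cover counting error alone, and reads that carry no molecular identifier cannot be taken as independent molecules. Because these are bulk libraries, fewer cells of a kind and less RNA per cell cannot be told apart.

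LXRs are nuclear receptors that bind oxysterols, oxidised forms of cholesterol, and act on DNA as heterodimers with a retinoid X receptor (RXR). When a macrophage is loaded with cholesterol, they switch on the exporters ABCA1 and ABCG1, which hand cholesterol to apolipoprotein A-I and to HDL, and MYLIP, a ubiquitin ligase that sends lipoprotein receptors to degradation. Without ligand the same receptors sit on target genes with corepressors such as NCOR1. Excess cholesterol that is not exported is esterified by SOAT1 and stored in lipid droplets.

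Under TMM scaling the receptor genes were higher in 3D, whereas Abca1 and Mylip were far lower and Abcg1 and Apoe stood near equal. Of the 9 genes, 3 (Nr1h3, Nr1h2 and Lpcat3) were at least 2-fold higher in 3D, where 18.7% of all measured genes were. Abca1 and Mylip were at least 2-fold lower, where 20.8% of all measured genes were. Together 5 of the 9 were at least 2-fold different, where 39.5% of all measured genes were. The median log2 ratio, 3D over 2D, was 0.51 over the 9 genes and 0.05 over all measured genes. The genes were proposed from this comparison, so these counts describe them and test nothing. Ratios depend on the scaling: against TMM, scaling to total counts lowered every log2 ratio by 0.60 and scaling to 22 genes in common use as references lowered it by 0.56, and the median over all genes then became -0.56 and -0.51. Under those 2 scalings Nr1h3 alone stayed at least 2-fold higher, Abca1 and Mylip stayed lower, and Soat1, Abcg1 and Apoe lay below 1.

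**Figure D1:**
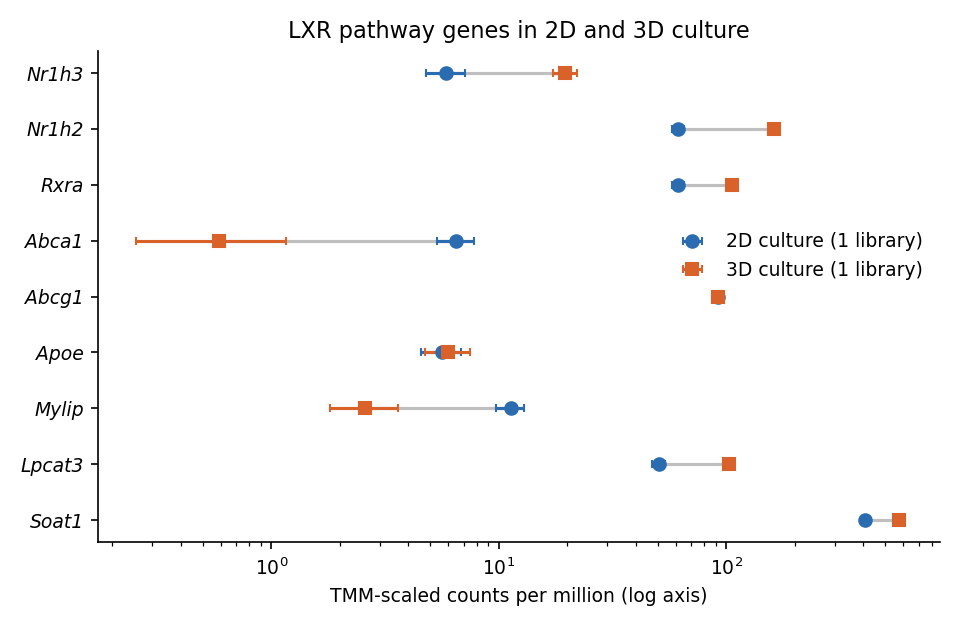
Level of each gene in the 2D (blue circles) and 3D (orange squares) libraries, in TMM-scaled counts per 1000000 on a log axis, with exact Poisson 95% intervals for counting error. Abca1 stood at 6.50 and 0.591 CPM and Mylip at 11.3 and 2.59 CPM, while Nr1h3 stood at 5.88 and 19.6 CPM and the intervals of Apoe overlapped.

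The ratios ran along transcript composition in these libraries, which bears on every gene here. With protein-coding genes split into 10 equal groups by GC content, medians of the log2 ratio spanned -1.28 (lowest group) to 0.96 (highest). An adjusted log2 ratio is therefore given beside each ratio, taken after removing trends along GC content, exon length and mean expression; its median over all genes was 0.02. After adjustment 1 of the 9 genes, Nr1h3, was at least 2-fold higher, where 10.5% of all genes were, and the same 2 genes, Abca1 and Mylip, were at least 2-fold lower, where 9.75% of all genes were. Adjustment also removes any biological difference that follows these properties.

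**Figure D2:**
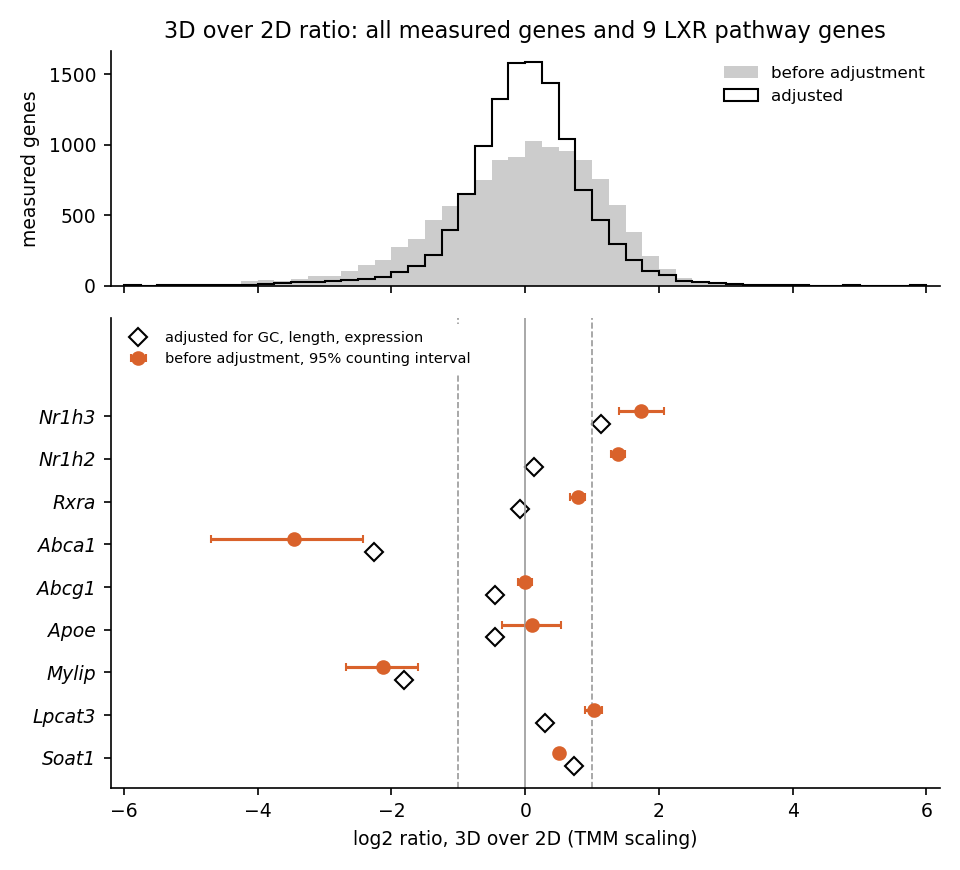
Top, number of measured genes by log2 ratio (3D over 2D) before adjustment (grey) and after it (black outline), with values beyond 6 in either direction placed in the end bins. Bottom, each gene before adjustment (orange circles, 95% counting intervals) and after it (open diamonds), with 2-fold limits dashed: Abca1 at -3.46 and -2.26 and Mylip at -2.12 and -1.82 stayed beyond them, as did Nr1h3 at 1.74 and 1.13.

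Among the receptors, Nr1h3 (ENSMUSG00000002108, chromosome 2, 91184061 to 91202834, mm10), which encodes LXR alpha, had 104 counts in 2D and 265 in 3D. Its level was 5.88 and 19.6 CPM, a 3.33-fold higher value in 3D (2.64 to 4.22), above 95.8% of measured genes. Exons of the noncoding gene Gm13783 on the same strand overlap it, so reads could be shared. Nr1h2 (ENSMUSG00000060601, chromosome 7, 44549616 to 44553951), which encodes the ubiquitous LXR beta, had 1089 and 2187 counts, or 61.6 and 162 CPM, and was 2.62-fold higher (2.44 to 2.83). Nr1h2 has the highest transcript GC content of the 9 genes, 60.6%; its ratio was 1.73 by total counts and its adjusted log2 ratio 0.13, so it was not past 2-fold in either. LXR beta was the main LXR transcript in both cultures: Nr1h3 held 8.72% of the counts of the pair in 2D (95% Wilson interval 7.25% to 10.5%) and 10.8% in 3D (9.64% to 12.1%). The ratio of Nr1h3 was 1.27 times that of Nr1h2, a value free of library scaling, with an interval that reached 1 (0.995 to 1.63). Together the LXR genes stood at 67.5 and 181 CPM.

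Rxra (ENSMUSG00000015846, chromosome 2, 27676440 to 27762957), the heterodimer partner RXR alpha, had 1088 and 1433 counts and was 1.72-fold higher in 3D (1.59 to 1.86). This is below the 2-fold limit, and the adjusted log2 ratio was -0.08. The partner gene Rxrb had 1673 and 2813 counts and was 2.20-fold higher (2.07 to 2.34; adjusted log2 ratio -0.17), and Rxrg had 0 counts in both libraries. Rxra thus made up 39.4% of the counts of the Rxra and Rxrb pair in 2D (37.6% to 41.2%) and 33.7% in 3D (32.3% to 35.2%). Of 17 genes for LXRs, RXRs and other receptors that pair with RXR or share ligands with such pairs, 11 were measured. Of these, 3 were at least 2-fold higher, namely Nr1h3, Nr1h2 and Rxrb, where 18.7% of all measured genes were. The orphan receptor gene Nr4a2 alone was lower past 2-fold, at 3.59-fold (2.27 to 5.91), where 20.8% of all measured genes were. After adjustment Nr1h3 and Rarb (adjusted log2 ratio 1.10) passed upward, where 10.5% of all genes did. Nr4a2 passed downward (-1.07), where 9.75% of all genes did. Pparg, which drives Nr1h3 in lipid-loaded macrophages, had 1 count in 2D and 0 in 3D.

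Abca1 (ENSMUSG00000015243, chromosome 4, 53030787 to 53159895) encodes the transporter that moves cholesterol and phospholipid onto lipid-poor apolipoprotein A-I. It had 115 counts in 2D and 8 in 3D, or 6.50 and 0.591 CPM, an 11.0-fold lower value in 3D (5.40 to 26.1). Only 1.39% of measured genes had a ratio as low or lower, and 1.98% after adjustment, where the log2 ratio was -2.26. With 8 counts the size of the fold is loose: a pseudocount of 1 CPM, which pulls low genes toward 1, gave a log2 ratio of -2.24 in place of -3.46. Of 331 named protein-coding genes with a mean level close to it, the ones with the nearest log2 ratio were Zfp944 (131 and 9 counts), Tent5a (95 and 7) and Trim12c (110 and 9), over these 2 libraries only. Abcg1 (ENSMUSG00000024030, chromosome 17, 31057675 to 31117988), the exporter to HDL, had 1620 and 1238 counts, which TMM scaling turned into 91.6 and 91.5 CPM, a ratio of 0.999 (0.927 to 1.08). Under total counts the ratio was 0.660, and the adjusted log2 ratio was -0.46. The ratio of Abcg1 was 11.0 times that of Abca1 (5.36 to 26.1), whatever the scaling. Abcg1 held 93.4% of the counts of the pair in 2D (92.1% to 94.4%) and 99.4% in 3D (98.7% to 99.7%).

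The promoters of Abca1 and Mylip, which had the lowest ratios, and of Nr1h3, which had the highest, are shown because all 3 kept a 2-fold difference under every scaling and after adjustment. Each run is the 250 bases before the start of transcription in RefSeq on GRCm38.p6, on the strand of the gene, and 8 of the 9 genes had at least 1 such window. They lie at chr4:53159896-53160145 (minus strand) for Abca1, chr13:45389492-45389741 (plus strand) for Mylip and chr2:91195117-91195366 (minus strand) for Nr1h3, which has a further start close by. LXR and RXR bind direct repeats of AGGTCA spaced by 4 bases, so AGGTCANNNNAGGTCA was searched on both strands with up to 3 mismatches among its 12 fixed bases, beside the E-box CACGTG. Capitals mark the matches.
Abca1 promoter: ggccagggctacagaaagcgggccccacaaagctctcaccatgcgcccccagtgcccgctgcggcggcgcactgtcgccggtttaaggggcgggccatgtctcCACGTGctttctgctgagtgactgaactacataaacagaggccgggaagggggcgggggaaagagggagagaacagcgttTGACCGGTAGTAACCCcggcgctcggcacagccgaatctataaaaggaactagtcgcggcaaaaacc
Mylip promoter: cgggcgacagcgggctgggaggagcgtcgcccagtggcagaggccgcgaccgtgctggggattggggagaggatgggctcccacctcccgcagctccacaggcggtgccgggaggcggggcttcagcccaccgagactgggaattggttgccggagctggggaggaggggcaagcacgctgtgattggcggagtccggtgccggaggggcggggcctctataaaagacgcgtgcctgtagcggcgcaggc
Nr1h3 promoter: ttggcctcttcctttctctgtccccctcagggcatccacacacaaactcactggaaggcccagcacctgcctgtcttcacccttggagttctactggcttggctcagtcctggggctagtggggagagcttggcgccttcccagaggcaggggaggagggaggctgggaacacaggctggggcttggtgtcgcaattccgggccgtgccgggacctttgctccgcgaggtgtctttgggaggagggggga
The Abca1 window held 1 such repeat, from 67 to 52 bases before the start, which read on the other strand is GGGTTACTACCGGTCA, with 3 mismatches. It also held 1 E-box, which begins 147 bases before the start. Of 32851 promoter windows, 18.5% held a repeat with up to 3 mismatches and 6.02% held the E-box, so such a repeat is common at this length. The Mylip and Nr1h3 windows held neither, which says only that these letters are not in these windows. Among all 12 windows of the 8 genes, the other match to the repeat lay in the second window of Rxra, again with 3 mismatches. GC content of the printed windows was 61.6% for Abca1, 71.2% for Mylip and 63.2% for Nr1h3, against a median of 52.4% over all windows.

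Apoe (ENSMUSG00000002985, chromosome 7, 19696109 to 19699188) encodes an apolipoprotein that macrophages secrete to carry exported cholesterol. It had 99 counts in 2D and 81 in 3D, or 5.60 and 5.99 CPM. The ratio was 1.07 (0.787 to 1.45) under TMM scaling and 0.706 under total counts, and the adjusted log2 ratio was -0.45. At this depth a difference was not detectable under TMM scaling. Per kilobase of exon Apoe stood at 2.62 and 2.80 CPM, below 6 of the other 8 genes in each library. Among 440 named protein-coding genes of like level, those with the nearest log2 ratio were Pou6f1 (122 and 100 counts), Piwil2 (81 and 66) and Ripk3 (90 and 73). Its neighbours in the apolipoprotein cluster, Apoc1, Apoc4 and Apoc2, which are LXR targets in macrophages, had 0 counts in both libraries, which allows up to 0.170 CPM in 2D and 0.222 in 3D. Of 9 listed neighbours 5 were measured. Of these, 3 were past 2-fold upward and 0 downward, where 18.7% and 20.8% of all measured genes were. After adjustment 0 of the 5 were past 2-fold in either direction. The adjoining housekeeping gene Tomm40, a mitochondrial import channel, had a ratio of 1.44 (1.32 to 1.56), and Clptm1 nearby had the highest of the 5 measured neighbours, 3.78 (3.59 to 3.97).

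Mylip (ENSMUSG00000038175, chromosome 13, 45389742 to 45412022), also called IDOL, had 199 counts in 2D and 35 in 3D. Its level of 11.3 and 2.59 CPM made it 4.35-fold lower in 3D (3.03 to 6.42), and the adjusted log2 ratio was -1.82. Only 5.82% of measured genes had a ratio as low or lower, and 3.09% after adjustment. Among genes for its substrates, Lrp8, the apolipoprotein E receptor gene, had 1450 and 511 counts and was 2.17-fold lower (1.96 to 2.41; adjusted log2 ratio -0.74), and Vldlr had 0 counts in both libraries. Of 13 measured genes for lipoprotein receptors and MYLIP partners, 2 passed 2-fold upward and 2 downward, and the median log2 ratio was 0.41. Over all measured genes 18.7% passed upward and 20.8% downward.

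Lpcat3 (ENSMUSG00000004270, chromosome 6, 124663027 to 124704418) encodes the acyltransferase that puts polyunsaturated chains into membrane phospholipids. It had 893 and 1387 counts, or 50.5 and 102 CPM, and passed the 2-fold limit narrowly at 2.03 (1.86 to 2.21). The lower bound lay below 2, total counts gave 1.34 and the adjusted log2 ratio was 0.30, so the call rests on the scaling. The 3' end of Lpcat3 overlaps Emg1 on the opposite strand, and since no source used here gives the strand setting of the counting, their reads may be mixed. The related gene Lpcat1, which favours saturated chains, had 1133 and 684 counts, and the ratio of Lpcat3 was 2.57 times that of Lpcat1 (2.26 to 2.93). Among 12 measured genes of phospholipid remodelling other than Lpcat3, 2 passed 2-fold upward, Agpat2 at 3.27-fold and Agpat3 at 2.35-fold. Lpgat1 alone passed downward, at 2.02-fold. The shares among all measured genes were 18.7% upward and 20.8% downward. After adjustment 0 of the 12 passed in either direction, where 10.5% and 9.75% of all genes did.

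Soat1 (ENSMUSG00000026600, chromosome 1, 156424525 to 156474331), the enzyme that esterifies cholesterol for storage, was the most abundant of the 9 genes. It had 7172 and 7792 counts, or 406 and 576 CPM, a ratio of 1.42 (1.37 to 1.47) under TMM scaling that total counts turned into 0.938 and the reference genes into 0.964. It has the lowest transcript GC content of the 9 genes, 44.1%, and its adjusted log2 ratio of 0.72 was above the unadjusted 0.51. The isoenzyme gene Soat2 had 423 and 62 counts, which made it 5.22-fold lower in 3D (3.99 to 6.93; adjusted log2 ratio -2.96). Nceh1, which encodes a hydrolase of stored cholesteryl ester, had 2178 and 1021 counts. The ratio of Soat1 was 2.32 times that of Nceh1 (2.14 to 2.52), a difference free of scaling.

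**Figure D3:**
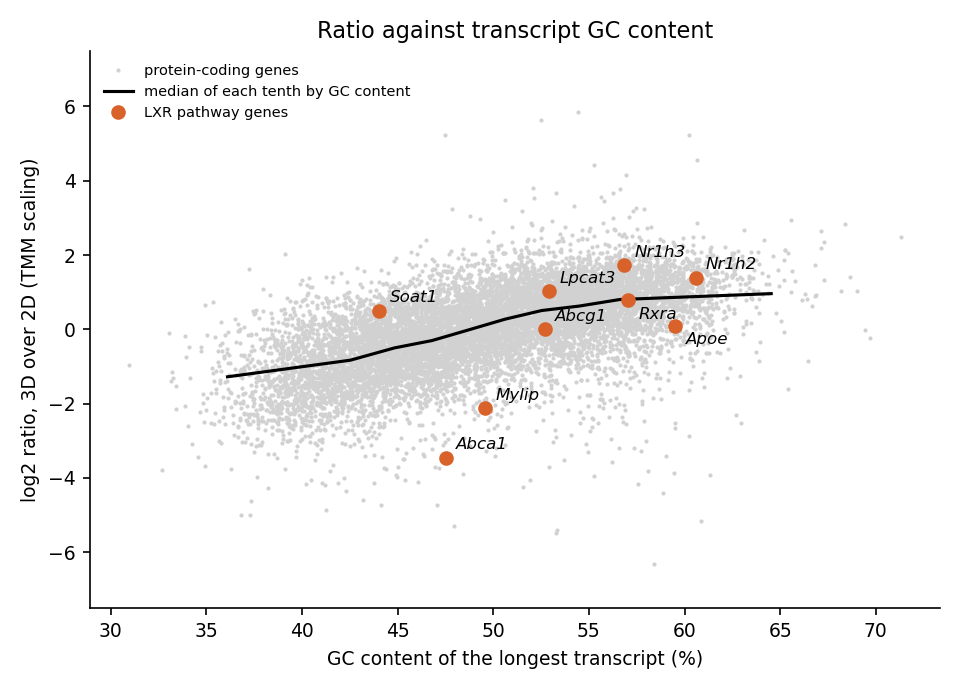
Log2 ratio (3D over 2D, TMM scaling) against GC content of the longest transcript for protein-coding genes (grey), with the median of each of 10 equal groups by GC content (black line) and the 9 genes (orange). Measured from the median of its GC group, Abca1 lay at -3.16, Mylip at -2.11, Rxra at -0.02, Nr1h3 at 0.93 and Soat1 at 1.01.

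Measured in the same way from genes of like GC content, Nr1h2 lay at 0.43 and Lpcat3 at 0.52, while Abcg1 lay at -0.51 and Apoe at -0.86. Abca1 and Mylip thus stayed the lowest of the 9 genes, and Soat1 took the highest place from Nr1h3. Levels per kilobase of exon put the genes in a similar order in both libraries. In the 2D library Soat1 led with 41.4 CPM per kilobase, followed by Nr1h2 (18.4), Lpcat3 (15.5), Abcg1 (12.6), Rxra (11.3), Mylip (3.48), Apoe (2.62), Nr1h3 (2.34) and Abca1 (0.628). Counting intervals overlapped between Abcg1 and Rxra and between the neighbours Mylip, Apoe and Nr1h3. In the 3D library the first 3 and the last were the same, at 58.8, 48.2, 31.4 and 0.0570 CPM per kilobase. Rxra (19.4) stood above Abcg1 (12.5) there, and Nr1h3 (7.79) and Apoe (2.80) stood above Mylip (0.800), with no overlap between neighbours.

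**Figure D4:**
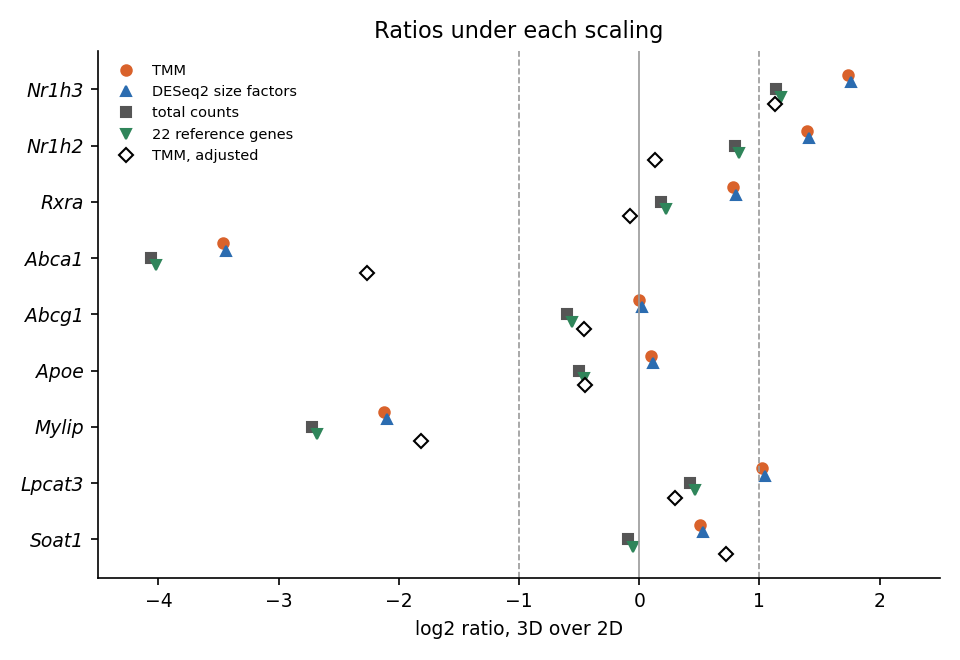
Log2 ratio (3D over 2D) of each gene under TMM scaling, size factors of DESeq2, total counts, 22 reference genes, and TMM scaling with adjustment for GC content, exon length and expression; dashed lines mark 2-fold. Abca1, Mylip and Nr1h3 stayed beyond the dashed lines in all 5, whereas Abcg1, Apoe, Soat1 and Rxra crossed 0 in at least 1.

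Of 27 LXR targets listed outside the 9 genes, 15 were measured. Their median log2 ratio was 0.60 under TMM scaling, against 0.05 over all measured genes. After adjustment the median was 0.12, against 0.02 over all genes. Of the 15, 4 passed 2-fold upward and 0 downward, where 18.7% and 20.8% of all measured genes did. The 4 were Cd5l (an apoptosis inhibitor secreted by macrophages), the desaturase genes Fads1 (2.16-fold) and Fads2 (2.06-fold), and Pltp, the phospholipid transfer protein gene (2.70-fold, 1.44 to 5.24, from 16 and 33 counts). Under total counts 1 was higher and 3 were lower. After adjustment 3 were higher (Cd5l, Pltp and Mertk) and 0 lower, where 10.5% and 9.75% of all genes were. Srebf1, through which LXRs drive fatty acid synthesis, had 2143 and 2481 counts and a ratio of 1.51 (1.43 to 1.60; adjusted log2 ratio -0.47). Its target Fasn, fatty acid synthase, had a ratio of 1.99 (1.93 to 2.05; adjusted -0.12), and Scd1, a stearoyl-CoA desaturase, had a ratio of 0.67 (0.631 to 0.71; adjusted -0.71). Lpl, lipoprotein lipase, had a ratio of 0.747 (0.709 to 0.787; adjusted 0.12). Cd5l had 10 and 69 counts and was 9.02-fold higher (4.62 to 19.6; adjusted 3.39).

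Genes that load, move or sense cholesterol did not share a direction. Of 21 measured genes for release, storage and transport of cholesterol, 5 passed 2-fold upward and 2 downward, with a median log2 ratio of 0.51. Adjusted values also gave 5 and 2, though the genes passing upward were not all the same. For each list in this paragraph, the shares over all measured genes were 18.7% upward and 20.8% downward. After adjustment the shares over all genes were 10.5% and 9.75%. Npc1 and Npc2, which pass LDL-derived cholesterol out of the lysosome, had ratios of 1.75 (1.65 to 1.86; adjusted log2 ratio 1.20) and 2.47 (2.40 to 2.54; adjusted 0.38). The hormone-sensitive lipase gene Lipe was 3.25-fold higher (2.56 to 4.14; adjusted 1.49), and Osbpl8, a sterol-binding protein gene, 3.37-fold lower (3.23 to 3.52; adjusted -1.07). Of 12 genes that make or break down oxysterol ligands, 6 were measured, with 3 past 2-fold upward and 0 downward (1 and 1 after adjustment). Cyp27a1, which makes an oxysterol in mitochondria, had a ratio of 0.688 (0.611 to 0.773; adjusted -1.29), and the hydroxylase genes Ch25h and Cyp46a1 had 0 counts in both libraries. Cyp11a1, which cleaves the cholesterol side chain, was 3.95-fold higher (3.49 to 4.47; adjusted 1.82). In the SREBP2 pathway of cholesterol synthesis, 6 of 21 measured genes passed 2-fold upward and 2 downward; adjusted values left 1 and 0. Mvd, a decarboxylase of the mevalonate pathway, was 3.47-fold higher (3.29 to 3.66; adjusted 0.19).

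**Figure D5:**
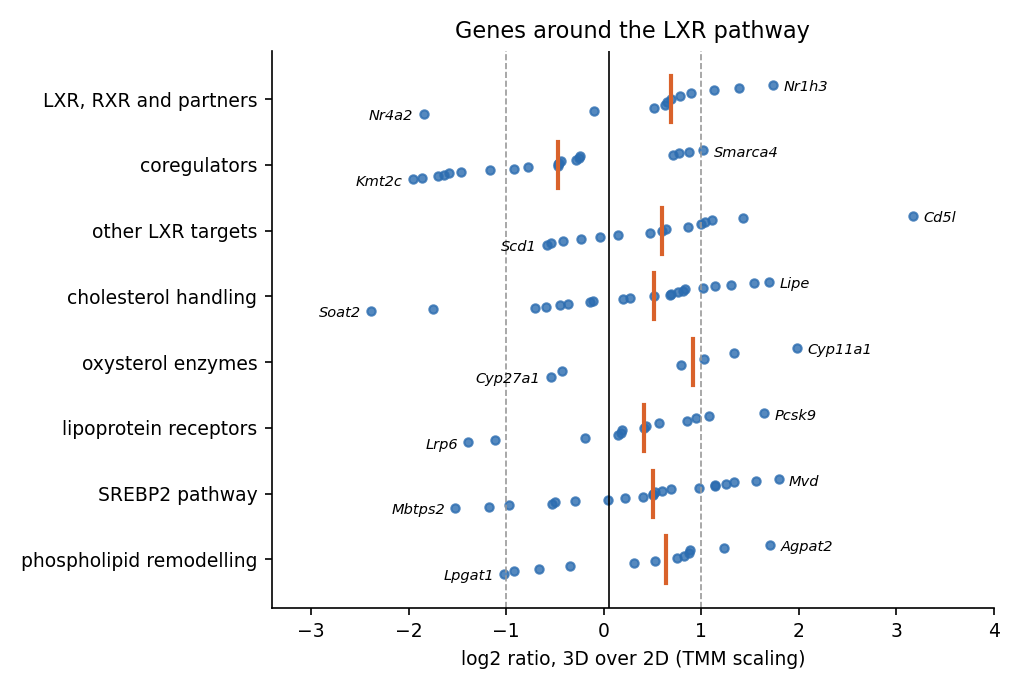
Log2 ratio (3D over 2D, TMM scaling) of the measured genes of 8 groups around the LXR pathway, 1 point per gene, with the group median (orange) and the lowest and highest gene named; the black line is the median of all genes and dashed lines mark 2-fold. The coregulator group has a median of -0.47, and the medians of the other groups lie between 0.41 and 0.92. With adjusted log2 ratios, not drawn here, its median is -0.31 and those of the other groups lie between -0.20 and 0.30.

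Of the coregulators through which LXRs repress or activate, 20 were measured. Their median log2 ratio was -0.47, or -0.31 when adjusted. Of the 20, 7 passed 2-fold downward in 3D and 1 upward, where 20.8% and 18.7% of all measured genes did. After adjustment 5 passed downward and 0 upward, where 9.75% and 10.5% of all genes did. The corepressor gene Ncor1 had 3736 and 1674 counts and a ratio of 0.586 (0.552 to 0.621; adjusted log2 ratio -0.71). The histone methyltransferase genes Kmt2c and Kmt2d were 3.87-fold and 3.62-fold lower, with adjusted log2 ratios of -1.39 and -2.37. The acetyltransferase gene Crebbp was 3.00-fold lower (adjusted -1.35) and Med1, the Mediator subunit that nuclear receptors contact, 2.75-fold lower (adjusted -1.01). Tbl1xr1, Nrip1 and Ppargc1a also passed 2-fold downward, but not after adjustment, with adjusted log2 ratios of -0.20, -0.23 and -0.46. Smarca4, a chromatin remodeller, was 2.03-fold higher with an adjusted log2 ratio of 0.00.

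Markers of the cell line and of other cell types were counted because Apoe, Abca1 and several LXR targets are also expressed elsewhere. Over all measured genes 18.7% were past 2-fold upward and 20.8% downward under TMM scaling. All 12 macrophage markers were measured, 7 past 2-fold upward and 1 (Ptprc, the CD45 gene, ratio 0.368) downward under TMM scaling. Of the others, Aif1 (0.577), Fcgr1 (0.687) and Itgam (0.731) also lay below 1. The median log2 ratio of the 12 was 1.29, or -0.02 when adjusted, with 0 past 2-fold in either direction after adjustment. The summed level of 3542 CPM in 2D and 10145 in 3D follows the most abundant of them, such as Cd68 and Lyz2. Of 20 hepatocyte marker genes found, 11 were at 0 in 2D and 1 in 3D, and the sum was 56 and 434 counts, or 3.17 and 32.1 CPM. In 3D Alb led with 232 counts (8 in 2D), followed by Ahsg with 38 (1 in 2D). In 2D Ambp led with 26 counts (33 in 3D), followed by Apoa2 with 11 (2 in 3D). Hepatocytes also express Apoe strongly; its ratio was 1.07 under TMM scaling and 0.706 under total counts. Cd5l is abundant in Kupffer cells, the macrophages of the liver; of 8 Kupffer cell markers, listed after the data were seen, 4 (Clec4f, Vsig4, Timd4 and Marco) were at 0 in both libraries, Clec1b, Folr2 and Cd163 had 0 in 3D, and Slc40a1 had 367 and 292 counts. The part of such RNA in the values of Apoe and Cd5l was not tested. The 22 reference genes had a median log2 ratio of 0.56 under TMM scaling, 6 past 2-fold upward and 1 downward. Fibroblast markers summed to 36 and 28 counts over 9 genes and T and B cell markers to 8 and 4 counts over 8 genes. Of 7 adipocyte markers, Adipoq, Lep, Cidec, Cfd and Retn were at 0 in both libraries, and Fabp4, which macrophages also express, had 2685 and 1201 counts. Endothelial markers summed to 394 and 755 counts over 8 genes, of which Vwf held 357 and 714.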

How the data were processed

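Messenger RNA of purified, untreated RAW264.7 cells was sequenced from 2D and 3D culture, 1 library each. RNA extraction used TRIzol and library preparation a TruSeq stranded mRNA kit, per the labels' protocols. The authors deposited counts of reads per Ensembl gene, made with Trimmomatic, HISAT2 and HTSeq on mm10, per the submitters' processing notes. Their strand setting and annotation release were not given in the sources used here.

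Of 52550 identifiers, 52403 (99.7%) matched GENCODE M21. TMM factors came from edgeR 4.0.16 in R 4.3.3 and were 1.23 (2D) and 0.813 (3D). A gene counted as measured at 1 CPM or more on average. Ratios have exact conditional (Clopper-Pearson) 95% intervals, and a gene with 0 counts in 1 library was set to 3 counts. Ratios of ratios are conditional odds ratios with exact intervals (scipy 1.17.1); 9 pairs were listed and 8 had values, Apoc1 having no counts. The adjusted log2 ratio is the residual from cubic splines with 4 degrees of freedom each in GC content, log2 exon length and log2 mean CPM (patsy 1.0.2, numpy 2.4.6). Code was tested on simulated counts. The genes and gene lists were chosen with earlier results of these data known. Named were the 9 genes, up to 4 at least 2-fold different genes of each list ranked by the interval bound nearest to 1, a set of landmark genes, and the 3 genes of like level nearest in log2 ratio to Abca1 and to Apoe. Not all are described, some are not reported here, and some that complete a count or a pathway were named after their values were seen. Alternatives were DESeq2 1.42.0 size factors, total counts, upper-quartile scaling, 22 reference genes, factors from protein-coding genes, other filters, thresholds and a pseudocount, the interval bound, thinning to 0.5 of the smaller total and the adjustment. Hepatocyte transferrin was not matched by the symbol listed.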

Additional observations from a re-analysis of the deposited data

How the results depend on the processing

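Each culture method had 1 library, so no library could be left out, and no paired analysis was possible because the labels give no replicate numbers. Under TMM scaling 3 of the 9 member genes passed 2-fold upward and 2 downward, and their median log2 ratio was 0.51. Over all genes, 2181 were higher and 2426 lower, and among the other LXR targets 4 and 0. Total counts gave 1 higher member gene and a median of -0.093, 657 higher and 4292 lower genes among all measured, and 1 and 3 LXR targets. The reference genes gave 1 higher member gene and a median of -0.0535, 710 and 3998 genes, and 1 and 2 LXR targets. Of all calls, 47.3% were higher with TMM factors, 13.3% by total counts and 15.1% by reference genes. Adjustment for GC content, exon length and expression gave 1 higher member gene, a median of -0.0768, and 1227 and 1138 genes. Without a filter 3939 genes were lower. A mean of at least 5 CPM, which leaves out Abca1, gave 1 lower member gene, a median of 0.64 and 2 higher LXR targets. A 1.5-fold rule gave 3701 higher genes and 8 higher LXR targets. A 4-fold rule gave 0 higher member genes, 260 and 779 genes, and 1 higher LXR target. Calling by the interval bound nearest to 1 gave 2 higher LXR targets. Factors from protein-coding genes gave a median of 0.45. No log2 ratio of a called member gene changed sign under any alternative that gave it a value. Beyond what each filter or threshold does by construction, the cause of these shifts was not tested. Thinning both libraries to 0.5 of the smaller total moved the ratio of Nr1h3 to 4.18 and its ratio to that of Nr1h2 to 1.73, so the balance of the LXR genes is not resolved at this depth. The counts of 8 for Abca1 and 35 for Mylip in 3D limit the size of their folds more than the direction.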
